A study of Mus musculus with 15 samples.

Results

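Aortic valve leaflets of Notch1 heterozygous mice with short telomeres were compared with those of Notch1 wild type mice with short telomeres. The heterozygous group (N1het_TercG2) held 4 libraries and the wild type group (N1WT_TercG2) held 3, so that 7 of the 15 libraries of the series entered. All 7 mice were C57BL/6 animals aged 2 months of the G2 line, the name used for the second generation bred without Terc, and so the lack of Terc is common to both groups. Each library was made from the 3 leaflets of 1 mouse. Which exons the mutant Notch1 allele has lost is not in the labels, and they name neither the sex of the mice nor a promoter or Cre line. The remaining 8 libraries came from mice with Terc, 4 of each Notch1 genotype (N1WT_TercWT and N1het_TercWT), and are called the long telomere groups here. Every gene of the deposited table was taken, 18073 in all, with 1 pooled expression value per gene and group in FPKM, fragments scaled to transcript length and to all mapped fragments.

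With 1 pooled value per group there was no replicate error, no test and no p-value, and a difference between mice cannot be told apart from a difference between genotypes. Differences are given as log2(FPKM + 1) in heterozygous minus wild type valves, which understates the fold of low genes, and stand in brackets after a pair of levels. A gene is called 2-fold different where that difference is at least 1 in size, and 4-fold different where it is at least 2. Where a pair of values is given without further words, the wild type value comes first and the heterozygous value after it, both with short telomeres. A gene at 0 FPKM is described as listed at 0 and is given no fold.

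Notch1 is a receptor at the cell surface that is cut after binding a Jagged or Delta ligand on a neighbouring cell, and its freed inner part enters the nucleus and acts with Rbpj on genes such as those of the Hes and Hey families. In the heart it acts in the endothelium and in the mesenchyme that forms the valves, and loss of a copy in people is a known cause of malformed and calcified aortic valves. Terc is the RNA template of telomerase, and mice bred without it lose telomere repeats over the generations. Valve leaflets consist of interstitial cells in a matrix of collagen, proteoglycan and elastic fibre under a layer of endothelium.

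The labelled tissue was visible in both groups. All 28 valve interstitial cell and fibroblast markers examined were above 0 in both, among them the small proteoglycan Dcn at 4698 and 3188 FPKM and the intermediate filament Vim at 1314 and 1234 FPKM. The endothelial junction proteins Cdh5 and Pecam1 stood at 88.3 and 121 FPKM and at 108 and 146 FPKM. Transcripts of blood cells and heart muscle were also abundant. The 24 erythroid genes summed to 29027 FPKM in wild type valves and to 16006 FPKM in heterozygous ones, and the 50 heart muscle genes to 8287 and 12800.0 FPKM. The Y-linked gene Ddx3y stood at 26.9 and 19.4 FPKM, so both groups held RNA of males. In such leaflets fewer cells of a type and less RNA per cell cannot be told apart.

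Terc was listed at 0 in both groups and at 1.42 and 4.52 FPKM in the corresponding long telomere groups. Notch1 itself was not lower in the heterozygous group. With short telomeres its wild type value was 16.6 FPKM and its heterozygous value 23.3 FPKM, a difference of 0.47, against 39.1 and 25.1 FPKM with long telomeres, a difference of -0.62. The heterozygous groups thus lay near each other at both telomere lengths, and the wild type group with short telomeres held the lowest Notch1 value of the 4 groups. A value counted over the whole gene does not show which allele the reads came from, so it checks the label only in part. Egfl7, an endothelial gene that lies beside Notch1, stood at 64.2 and 60.3 FPKM, and of the 20 genes nearest to Notch1, 10 on each side, 5 were higher and 15 lower in heterozygous valves with a median difference of -0.18.

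Of the 36 Notch pathway genes examined, 20 were higher and 16 lower in heterozygous valves. 7 were at least 2-fold higher, 19.4 percent of the list against 12.5 percent of all genes, and 6 at least 2-fold lower, 16.7 percent against 10.8 percent of all genes. Centred on the median of expressed genes, 17 were higher and 19 lower. The median was 0.03 beside 0.06 for all genes, so the list had no common direction, and each role held genes of both directions. Among the receptors, Notch4, which is largely endothelial, stood at 2.64 and 9.19 FPKM (1.48) and Notch2, which is also expressed in the cushion mesenchyme, at 34.6 and 14.5 FPKM (-1.20). Among the ligands, Jag1 stood at 5.41 and 16.1 FPKM (1.41) and Dll1 at 2.12 and 8.12 FPKM (1.55), both higher in heterozygous valves, whereas Dll4 was nearly level at 7.58 and 6.39 FPKM. The fringe enzymes add a sugar to Notch that shifts its choice of ligand. Lfng stood at 0.483 and 6.39 FPKM (2.32) and Rfng at 1.13 and 7.13 FPKM (1.93), and Mfng went the other way at 15.2 and 7.34 FPKM (-0.96). Psenen, a subunit of the gamma-secretase that frees the inner part, was higher at 106 and 179 FPKM (0.75). The ubiquitin ligases Dtx3 at 29.99 and 8.91 FPKM (-1.65) and Dtx4 at 14.6 and 5.89 FPKM (-1.18) were both lower.

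The nuclear cofactors were close to level, with Rbpj at 23.9 and 30.4 FPKM and Maml1 at 8.66 and 9.30 FPKM, and none of the 5 was 2-fold different. The targets split. Hes1 at 32.3 and 32.5 FPKM (0.01) and Hey1 at 19.8 and 18.6 FPKM (-0.08) were nearly level. Hey2, a repressor of the Hey family, stood at 4.04 and 20.8 FPKM (2.11), and Nrarp, which is induced by Notch and limits it, at 1.06 and 7.74 FPKM (2.08). Heyl, which is also a marker of mural cells, was lower at 26.5 and 8.06 FPKM (-1.60). For Lfng, Rfng and Hey2 the wild type group with short telomeres was the one that stood apart: with long telomeres the values were 6.84 and 4.94 FPKM, 12.2 and 8.996 FPKM and 18.1 and 15.7 FPKM, all nearer to the heterozygous than to the wild type value with short telomeres. Nrarp and Notch4 were instead highest in the heterozygous group with short telomeres, with 3.09 and 1.95 FPKM and 4.75 and 2.16 FPKM in the long telomere groups.

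**Figure D1:**
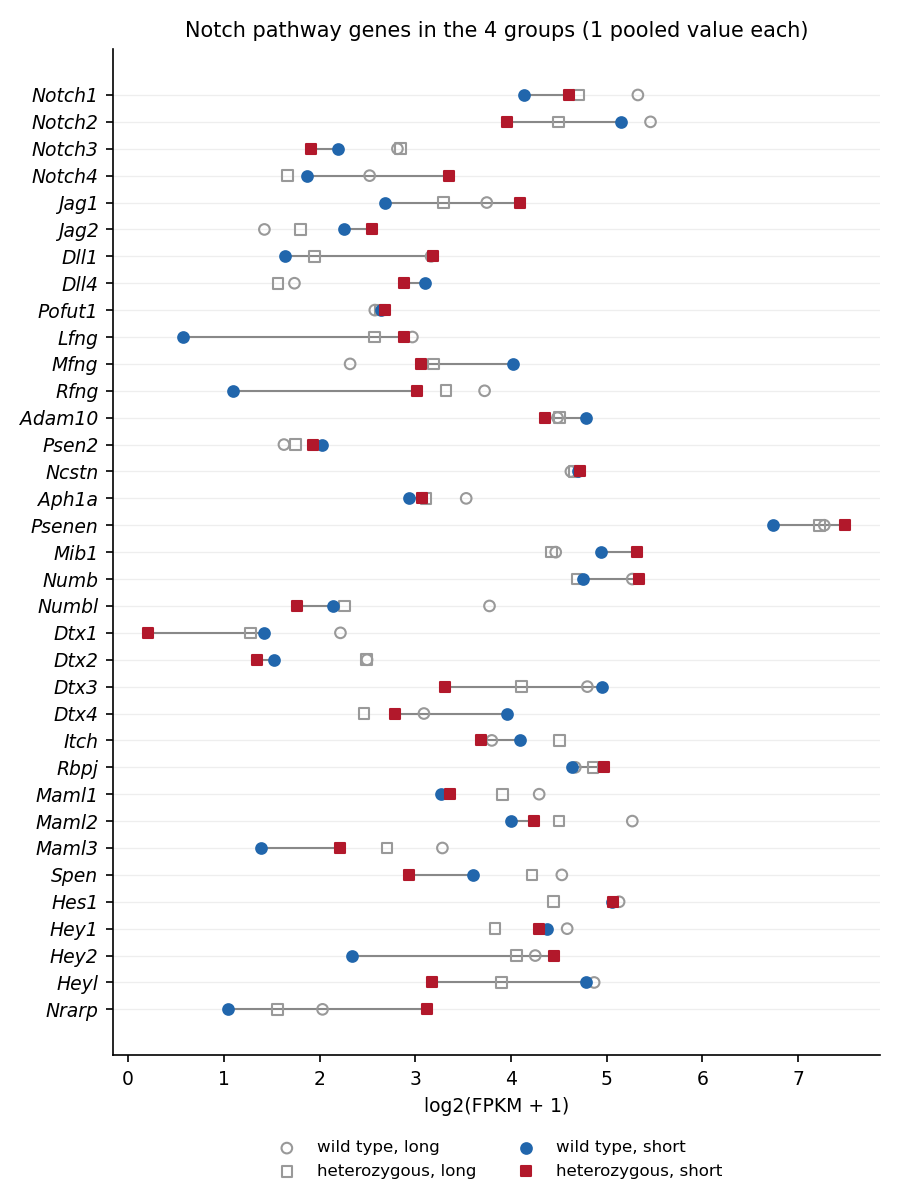
Level of 35 of the 36 Notch pathway genes as log2(FPKM + 1) on the horizontal axis, 1 pooled value per group, with filled circles for wild type and filled squares for heterozygous valves with short telomeres and open symbols for the long telomere groups. Grey lines join the short telomere groups, and the widest are those of Lfng, Hey2 and Nrarp, which were higher in heterozygous valves.

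The 250 bases before the start of Hey2 and of Lfng are shown because these genes had the largest differences of the target and fringe groups. They were taken from RefSeq promoters of build GRCm38.p6 by gene symbol. Capitals mark matches to GTGGGAA, the core of the sequence that Rbpj binds, searched on both strands, so that a match on the other strand reads TTCCCAC. Hey2 lies at chr10:30842784-30843033 on the minus strand and Lfng at chr5:140607091-140607340 on the plus strand.
Hey2: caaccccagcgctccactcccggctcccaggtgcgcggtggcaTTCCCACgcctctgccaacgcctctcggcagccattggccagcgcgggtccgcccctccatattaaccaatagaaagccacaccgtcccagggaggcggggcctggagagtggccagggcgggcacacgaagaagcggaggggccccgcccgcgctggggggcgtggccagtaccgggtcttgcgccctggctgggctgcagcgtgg
Lfng: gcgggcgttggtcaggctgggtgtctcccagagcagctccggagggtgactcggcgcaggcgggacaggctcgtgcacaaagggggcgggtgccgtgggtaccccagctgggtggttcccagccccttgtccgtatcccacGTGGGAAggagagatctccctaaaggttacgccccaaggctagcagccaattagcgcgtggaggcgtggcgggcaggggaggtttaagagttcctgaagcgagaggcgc
Each held 1 match. Of the 27 Notch pathway genes with a promoter in that table, 3 held the motif, 11.1 percent, against 5.41 percent of 27025 promoters. The third was Spen, a corepressor that binds Rbpj, which was lower in heterozygous valves at 11.1 and 6.63 FPKM (-0.67). Nrarp held none. A match describes these letters and is not a shown binding site.

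Across all genes, 9669 were higher in heterozygous valves and 7696 lower, 53.5 and 42.6 percent, with a median difference of 0.06. At least 2-fold differences numbered 2254 higher and 1943 lower, and at least 4-fold differences 466 higher (2.58 percent) and 552 lower (3.05 percent). The share that passed differed by level. Of genes with a mean under 1 FPKM, where adding 1 before the logarithm keeps differences small, 9.42 percent were at least 2-fold different. The share was 38.1 percent at 1 to 3 FPKM and 14.4 percent at 100 FPKM or more. Small RNA genes stood out, with 37.6 percent of 303 at least 4-fold different against 3.85 percent of 14809 protein-coding genes. They supplied 10 of the 20 largest positive and 7 of the 20 largest negative differences among named genes with at least 10 FPKM, for example SCARNA15, listed at 0 in wild type valves and reaching 21.4 FPKM in heterozygous ones, and SNORD17 at 42.5 and 0.690 FPKM. In wild type valves 2010 genes were listed at 0, against 1181 in heterozygous valves, and 1302 of the genes at 0 in wild type valves were above 0 in heterozygous valves with a median of 0.488 FPKM there. With long telomeres 705 genes were listed at 0 in wild type and 250 in heterozygous valves. The wild type group with short telomeres, of 3 libraries, thus held the most genes at 0 of the 4 groups. The part of this in its low values was not tested. The plot of all genes by level shows the genes listed at 0 along its axes.

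**Figure D2:**
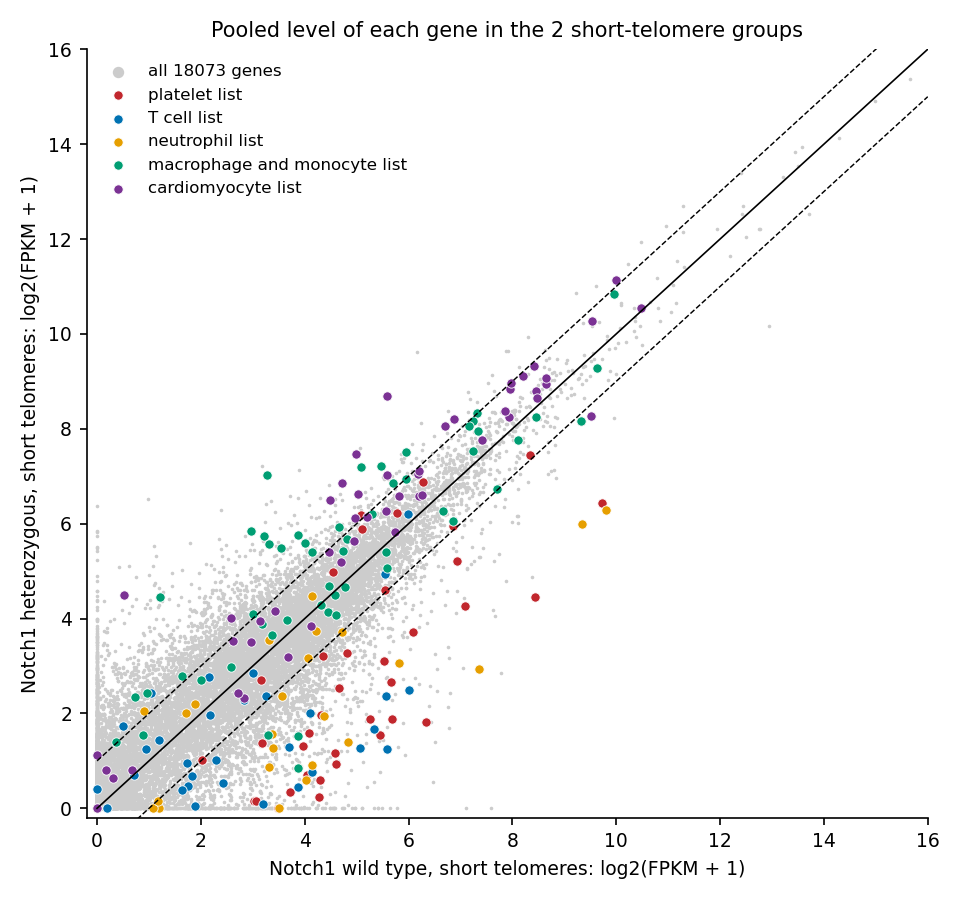
Each point is 1 of 18073 genes, with its pooled log2(FPKM + 1) in Notch1 wild type (horizontal) and Notch1 heterozygous valves (vertical), both with short telomeres, and coloured points are members of 5 gene lists. Platelet, T cell and neutrophil genes lie mostly below the lower dashed line, which marks 2-fold lower, and macrophage and heart muscle genes mostly above the solid line of equal values.

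Platelet genes were the list with the lowest median. Of 38, 28 were at least 2-fold lower in heterozygous valves, 73.7 percent against 10.8 percent of all genes, and the median was -2.46. Their summed level was 3438 FPKM in wild type valves and 1134 FPKM in heterozygous ones. All 15 surface receptors were lower, 14 of them at least 2-fold. The 4 subunits of the receptor for von Willebrand factor, through which platelets first stick to an injured wall, were lower together: Gp1ba stood at 37.4 and 2.69 FPKM, Gp1bb at 80.1 and 2.55 FPKM, Gp5 at 18.2 and 0.187 FPKM and Gp9 at 346 and 20.8 FPKM, with differences of -3.38, -4.52, -4.02 and -4.00. The fibrinogen receptor was lower too, with Itga2b at 14.7 and 1.49 FPKM (-2.66) and Itgb3 at 45.4 and 7.58 FPKM (-2.44). The collagen receptor Gp6 stood at 23.003 and 1.24 FPKM and Itga2, which binds collagen too, at 13.2 and 1.05 FPKM. The thrombin receptor subunit F2rl2 stood at 18.6 and 0.514 FPKM (-3.69).

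Of 9 granule proteins, 6 were lower, 5 at least 2-fold (55.6 percent against 10.8 percent of all genes), and 3 were higher. Ppbp, the precursor of a neutrophil-attracting chemokine, stood at 849.9 and 85.9 FPKM (-3.29), and Pf4, a platelet chemokine that macrophages also make, at 637 and 287 FPKM (-1.15). The coagulation factor F5 stood at 49.6 and 5.34 FPKM (-2.99). Clec2d, which lymphoid and other cells express as well, was the only member at least 2-fold higher, at 32.98 and 72.1 FPKM (1.11). Inside the cell, the platelet tubulin Tubb1 stood at 50.1 and 2.69 FPKM (-3.79) and the lipoxygenase Alox12 at 66.5 and 12.2 FPKM (-2.35). The megakaryocyte regulators Nfe2 at 12.1 and 0.270 FPKM and Gfi1b, listed at 0 in heterozygous and at 10.2 FPKM in wild type valves, were lower too. Slc6a4, which loads platelets with serotonin, stood at 17.001 and 0.526 FPKM (-3.56).

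The same list was lower in heterozygous valves with long telomeres, where the groups come from other mice, with a median of -2.86. Gp9 stood there at 531 and 2.21 FPKM and Ppbp at 1636 and 12.9 FPKM. The wild type groups were thus high and the heterozygous groups low at both telomere lengths, and the summed levels of the list were 4829 and 536 FPKM with long telomeres.

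The 250 bases before the start of the 4 genes of the von Willebrand factor receptor are shown because they are the tightest set of platelet genes with this difference. They come from RefSeq, build GRCm38.p6, by symbol: Gp1ba at chr11:70638872-70639121 (plus), Gp1bb at chr16:18622404-18622653 (minus), Gp5 at chr16:30310782-30311031 (minus) and Gp9 at chr6:87777820-87778069 (plus). Capitals mark GATAA, the core bound by GATA factors, and AGGAAG, a core bound by ETS factors, on either strand (TTATC and CTTCCT on the other strand).
Gp1ba: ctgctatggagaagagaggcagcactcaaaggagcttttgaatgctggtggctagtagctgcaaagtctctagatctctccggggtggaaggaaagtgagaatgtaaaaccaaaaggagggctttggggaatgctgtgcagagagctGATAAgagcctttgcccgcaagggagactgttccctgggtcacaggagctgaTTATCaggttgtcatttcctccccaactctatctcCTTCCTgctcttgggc
Gp1bb: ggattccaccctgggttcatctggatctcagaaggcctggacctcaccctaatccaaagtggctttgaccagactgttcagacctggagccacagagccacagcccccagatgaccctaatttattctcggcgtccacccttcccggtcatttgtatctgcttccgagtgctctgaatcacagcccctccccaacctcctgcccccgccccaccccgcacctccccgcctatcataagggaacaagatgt
Gp5: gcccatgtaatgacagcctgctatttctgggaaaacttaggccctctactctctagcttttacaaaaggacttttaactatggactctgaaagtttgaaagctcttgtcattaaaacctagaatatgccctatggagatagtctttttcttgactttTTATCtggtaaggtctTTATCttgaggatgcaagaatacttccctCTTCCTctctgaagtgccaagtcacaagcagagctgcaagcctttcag
Gp9: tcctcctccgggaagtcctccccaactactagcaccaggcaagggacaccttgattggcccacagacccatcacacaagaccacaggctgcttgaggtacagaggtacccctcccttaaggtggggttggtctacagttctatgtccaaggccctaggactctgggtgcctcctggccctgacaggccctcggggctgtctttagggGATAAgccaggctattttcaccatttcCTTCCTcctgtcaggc
Gp1ba and Gp5 held 3 matches each, Gp9 held 2 and Gp1bb none within this window. Of 31 platelet genes with a promoter in the table, 12 held GATAA, 38.7 percent against 23.02 percent of all promoters, and 14 held AGGAAG, 45.2 percent against 29.2 percent. These motifs were chosen with the sequences in view, and the shares are a description.

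T cell genes were also lower in heterozygous valves. Of 33, 26 were lower, 17 of them at least 2-fold (51.5 percent against 10.8 percent of all genes), with a median of -1.16. The coreceptor chains Cd8a and Cd8b1 stood at 32.5 and 1.43 FPKM and 46.9 and 1.39 FPKM, and Cd6, which tunes T cell activation, at 16.6 and 0.688 FPKM (-3.38). All 9 genes of receptor signalling were lower, among them the adaptor Lat at 63.7 and 4.68 FPKM (-3.51) and the kinase Lck at 11.97 and 1.43 FPKM (-2.41). The 5 genes of the receptor complex itself were lower too, but only 1 at least 2-fold (20 percent against 10.8 percent of all genes). The 6 cytotoxic genes had no common direction, with 3 higher and 3 lower. Genes of immature thymocytes, which rearrange the receptor genes, were lower in 19 of 20, 13 at least 2-fold (65 percent against 10.8). Dntt, which adds bases at the joins, stood at 10.3 and 0.198 FPKM (-3.24), Rag1 at 11.5 and 2.01 FPKM (-2.06) and the transcription factor Tcf7 at 84.7 and 5.004 FPKM (-3.84). Ptcra, the surrogate alpha chain of the early receptor, was listed at 0 in heterozygous and at 8.73 FPKM in wild type valves. The direction with long telomeres was the opposite, with list medians of 2.50 and 2.76, Dntt at 10.9 and 139 FPKM and Cd8a at 21.4 and 210.1 FPKM. The heterozygous group with long telomeres thus held the highest summed thymocyte level of the 4 groups, 1497 FPKM, and the heterozygous group with short telomeres the lowest, 56.6 FPKM against 311 in wild type valves with short telomeres.

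Neutrophil genes were highest in the wild type group with short telomeres. Of 26, 17 were at least 2-fold lower in heterozygous valves (65.4 percent against 10.8 percent of all genes), and the list summed to 1993 FPKM in wild type valves and 244 FPKM in heterozygous ones, against 41.1 and 107 FPKM with long telomeres. The calcium-binding proteins S100a8 and S100a9, abundant in the neutrophil cytosol, stood at 892 and 77.4 FPKM and 648 and 62.9 FPKM. The secreted Retnlg stood at 163 and 6.68 FPKM (-4.42), the antimicrobial peptide precursor Camp at 15.2 and 0.515 FPKM (-3.42) and the chemokine receptor Cxcr2 at 19.8 and 2.85 FPKM (-2.44). Elane, the neutrophil elastase, was listed at 0 in every group but wild type with short telomeres, where it stood at 10.4 FPKM. The decoy receptor Il1r2, which neutrophils carry, stood at 27.2 and 1.30 FPKM (-3.62). Lcn2 at 8.89 and 10.6 FPKM and Pglyrp1 at 16.7 and 21.4 FPKM, which other cells also make, did not share the pattern.

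Erythroid genes were lower in 18 of 24, 8 at least 2-fold (33.3 percent against 10.8 percent of all genes), with a median of -0.55. The membrane anion exchanger Slc4a1 stood at 133 and 20.7 FPKM (-2.62) and Alas2, the first enzyme of erythroid haem synthesis, at 986 and 299 FPKM (-1.72). The globin Hbb-b1 stood at 13395 and 5935 FPKM (-1.17). The iron uptake receptor Tfrc, which many dividing cells use, was the member at least 2-fold higher, at 1.98 and 8.02 FPKM (1.60). B cell genes showed no common direction, with 12 higher and 13 lower. The receptor for the survival factor BAFF, Tnfrsf13c, stood at 0.133 and 12.1 FPKM (3.53) and Ms4a1, which encodes CD20, at 0.240 and 6.42 FPKM (2.58), whereas the antibody chains Igh-6 at 158 and 108 FPKM and Igk-C at 168 and 138 FPKM were lower.

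Macrophage genes went the other way. Of 53, 36 were higher in heterozygous valves, 20 of them at least 2-fold (37.7 percent against 12.5 percent of all genes), with a median of 0.72. All 5 complement genes were higher, among them the C1q chains C1qa at 32.96 and 145 FPKM (2.11), C1qb at 159 and 323 FPKM (1.02) and C1qc at 43.5 and 147 FPKM (1.73). Of 14 markers of resident macrophages, 11 were higher, 7 at least 2-fold (50 percent against 12.5 percent of all genes). The complement receptor Vsig4 stood at 6.78 and 56.6 FPKM (2.89), Fcrls at 1.31 and 20.8 FPKM (3.24) and the mannose receptor Mrc1 at 14.98 and 47.6 FPKM (1.60). Of the general markers, the lysosomal protein Cd68 stood at 61.003 and 182 FPKM (1.56) and the pore-forming Mpeg1 at 10.7 and 43.9 FPKM (1.94). Not all general markers shared this direction, since Csf1r, the growth factor receptor of macrophages, stood at 46.3 and 41.6 FPKM and the signalling adaptor Tyrobp at 351 and 302 FPKM. Of 7 monocyte genes, 3 were at least 2-fold lower (42.9 percent against 10.8 percent of all genes), among them Ly6c2 at 8.81 and 1.91 FPKM (-1.75) and Plac8 at 13.7 and 1.87 FPKM (-2.36). Spp1, a secreted protein of activated macrophages and of bone matrix, stood at 8.63 and 130.2 FPKM (3.77), and the galectin Lgals3 at 8.87 and 46.7 FPKM (2.27). With long telomeres 38 of the 53 macrophage genes were higher in heterozygous valves and 15 lower, with a median of 0.31 beside 0.09 for all genes. Spp1 was 8.18 and 8.35 FPKM there and Vsig4 11.2 and 7.86 FPKM, so that for both the heterozygous group with short telomeres stood above the other 3.

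Chemokine ligands of the CC family were higher in 13 of 16, 9 at least 2-fold (56.2 percent against 12.5 percent of all genes). Ccl8, which draws monocytes and T cells, stood at 8.04 and 149 FPKM (4.05) and at 6.66 and 10.2 FPKM with long telomeres. The monocyte attractants Ccl2 at 37.5 and 106 FPKM (1.48), Ccl7 at 23.1 and 90.2 FPKM (1.92) and Ccl12 at 9.81 and 74.7 FPKM (2.81) were higher as well. The interferon-inducible CXC ligand Cxcl9 stood at 0.810 and 10.2 FPKM (2.63), but its relative Cxcl10 was close to level at 30.9 and 37.7 FPKM. The general inflammatory genes did not share this direction: 15 of 36 were higher, with Il1b lower at 165 and 100.4 FPKM (-0.71) and Il6 higher at 5.52 and 11.6 FPKM (0.95). Il10, a cytokine that restrains macrophages, stood at 0.690 and 28.3 FPKM (4.12), and its values with long telomeres were 0.382 and 2.36 FPKM. Hmox1, the enzyme that breaks down haem, stood at 13.9 and 140.1 FPKM (3.24). It was counted with 21 scavenging genes, of which 7 were higher and 14 lower. Of 10 iron genes, 7 were higher and 3 lower, though 6 were higher after quantile normalization. At least 2-fold higher were 4 (40 percent against 12.5 percent of all genes). These included the iron exporter Slc40a1 at 5.81 and 19.8 FPKM (1.61) and the transporter Slc11a1 at 0.987 and 9.23 FPKM (2.36). Of 13 dendritic cell genes, 9 were higher and 4 lower, with 3 at least 2-fold lower (23.1 percent against 10.8 percent of all genes). Cd207, the Langerin of some dendritic cells, was among the lower ones at 22.9 and 0.270 FPKM (-4.23). The class II chains H2-Aa at 669 and 746 FPKM and Cd74 at 906 and 937 FPKM were close to level. Of 11 class II genes, 6 were higher and 5 lower. At least 2-fold differences numbered 2 each way (18.2 percent, against 12.5 percent higher and 10.8 percent lower of all genes).

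**Figure D3:**
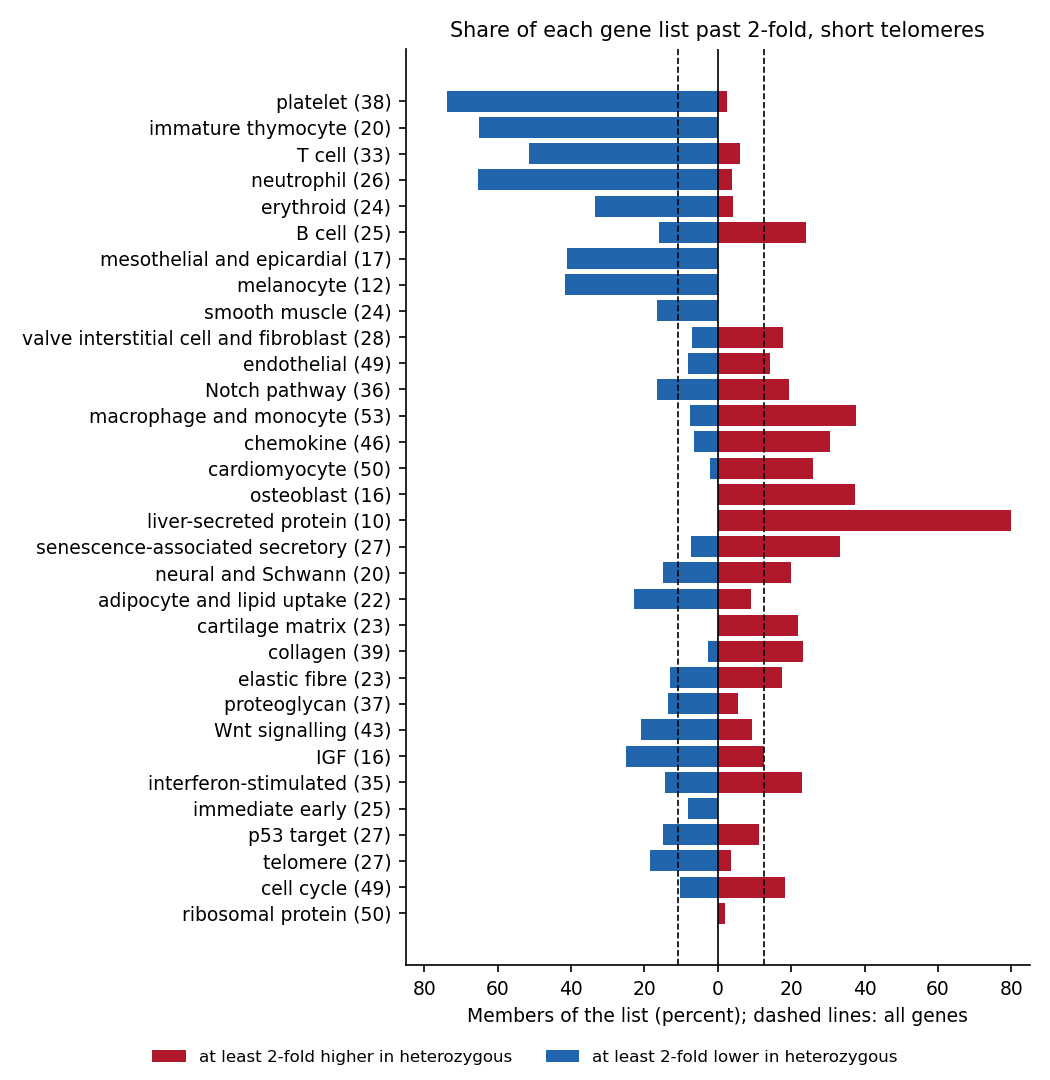
Percent of the members of each gene list, with the number of members in brackets, that were at least 2-fold higher (red, to the right) or at least 2-fold lower (blue, to the left) in heterozygous valves with short telomeres, 1 pooled value per group, with dashed lines at the 12.5 and 10.8 percent of all genes. The platelet, immature thymocyte, neutrophil and T cell lists reach furthest to the left, and the liver-secreted, macrophage and osteoblast lists furthest to the right.

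Heart muscle genes were higher in heterozygous valves in 44 of 50, 13 at least 2-fold (26 percent against 12.5 percent of all genes), with a median of 0.73. All 21 sarcomere genes, all 6 genes of calcium handling and all 7 genes of muscle energy supply were higher, most by less than 2-fold, except that Tnnt2 was lower after quantile normalization. The main myosin Myh6 stood at 399 and 489 FPKM (0.29) and the troponin Tnnt2 at 1432 and 1489 FPKM (0.06), close to level. The actins differed more, with Actc1 at 1026 and 2251 FPKM (1.13) and Acta1, the skeletal form that stressed heart muscle makes, at 30.5 and 176 FPKM (2.49). Casq2, which stores calcium, stood at 25.3 and 116 FPKM (2.15). The 2 largest differences of the list were those of atrial genes: Sln, which restrains the calcium pump of atrial muscle, stood at 0.439 and 21.6 FPKM (3.97) and Nppa, which encodes a natriuretic hormone of the atria, at 46.8 and 413 FPKM (3.11). The atrial light chain Myl7 stood at 47.1 and 129 FPKM (1.44). Nppb, the related peptide, stood at 21.5 and 89.3 FPKM (2.00). With long telomeres these atrial genes were high in wild type valves instead, Nppa at 352 and 43.4 FPKM, Sln at 31.4 and 0.563 FPKM and Myl7 at 216 and 13.01 FPKM, while Nppb was higher in heterozygous valves at 5.55 and 29.7 FPKM. Dkk3, which is listed with atrial genes, was the only member at least 2-fold lower, at 727 and 307 FPKM (-1.24). The share of attached muscle in each sample is not in the files, and its part in these values was not tested.

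**Figure D4:**
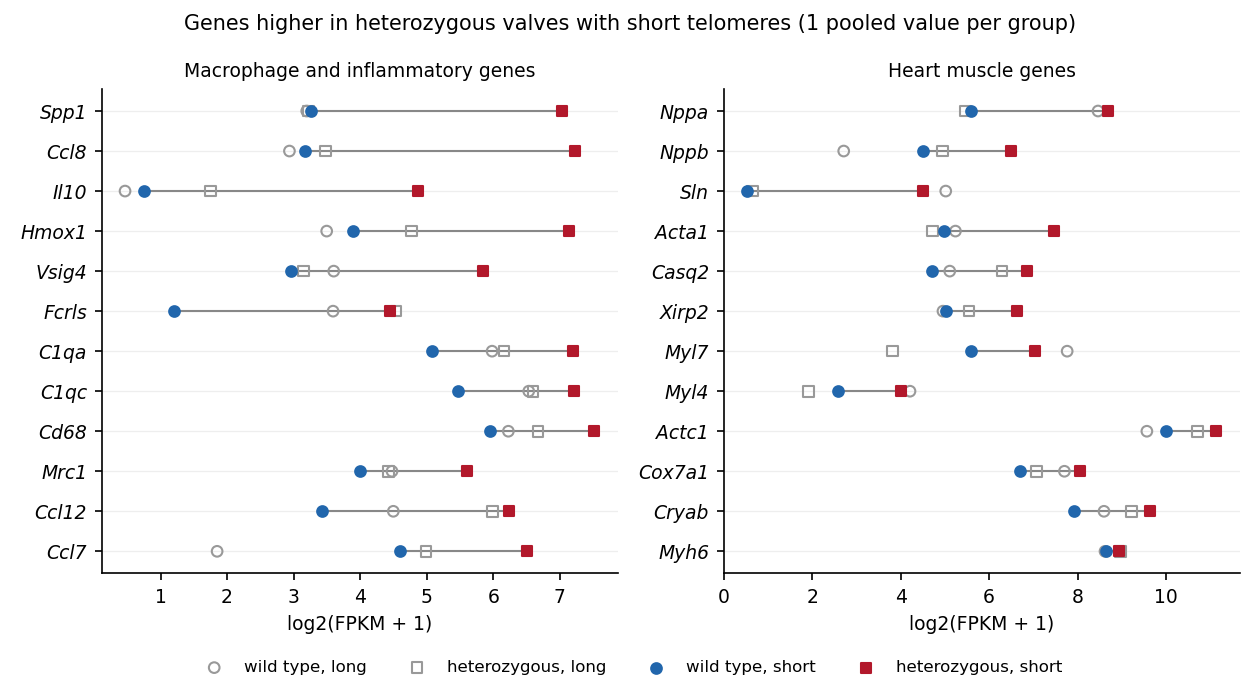
Level of 12 macrophage and inflammatory genes (left) and 12 heart muscle genes (right) as log2(FPKM + 1), 1 pooled value per group, with filled circles for wild type and filled squares for heterozygous valves with short telomeres and open symbols for the long telomere groups. Spp1, Ccl8, Il10 and Hmox1 stand above the other 3 groups in heterozygous valves with short telomeres, whereas Nppa, Sln and Myl7 were also high in wild type valves with long telomeres.

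Genes of the valve mesenchyme had no common direction, with 13 of 28 higher and a median of -0.06. The platelet-derived growth factor receptors Pdgfra at 47.02 and 24.6 FPKM (-0.91) and Pdgfrb at 63.2 and 29.5 FPKM (-1.07) were lower, as was the matrix protein Fbln1 at 145 and 67.03 FPKM (-1.10). The transcription factor Tcf21, which marks fibroblasts and their epicardial forebears, stood at 1.01 and 20.1 FPKM (3.39), and Cthrc1, a secreted protein of wound fibroblasts, at 1.61 and 11.5 FPKM (2.26). Tcf21 was 26.2 and 12.3 FPKM with long telomeres, so its wild type value with short telomeres was the low one. The surface protein Ly6a stood at 193 and 564 FPKM (1.54).

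Genes of bone formation were higher in 13 of 16, 6 at least 2-fold (37.5 percent against 12.5 percent of all genes), with a median of 0.50. Runx2, the regulator that starts the bone programme, was the exception among the regulators and was lower at 3.67 and 1.70 FPKM (-0.79). Bmp2, a ligand that drives bone formation, stood at 7.15 and 42.5 FPKM (2.42), the phosphatase Alpl at 4.01 and 9.63 FPKM (1.09) and the matrix protein Sparc at 397 and 809 FPKM (1.03). Bglap2, the osteocalcin of mature osteoblasts, was level at 5.15 and 5.51 FPKM. Mgp, which restrains mineral deposits in soft tissue, was higher at 2489 and 4568 FPKM (0.88), and Ank, which exports the mineral inhibitor pyrophosphate, stood at 24.1 and 48.4 FPKM (0.97). Spp1, described above, is a member of the bone and mineral lists as well. Cartilage matrix genes were higher in 18 of 23, 5 at least 2-fold (21.7 percent against 12.5 percent of all genes). Chad, a leucine-rich protein of cartilage, stood at 59.6 and 167 FPKM (1.47). Acan and Col2a1, which define cartilage, stayed low, at 1.57 and 1.64 FPKM in heterozygous valves and at less in wild type valves, and Sox9, their regulator, stood at 43.7 and 35.2 FPKM (-0.31). Bmp2 and Sparc were higher in heterozygous valves with short telomeres than in any other group, with 15.4 and 18.9 FPKM and 437 and 442 FPKM in the long telomere groups.

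All 7 genes of the group listed as fibrillar collagens were higher, none of them 2-fold. In this group Col1a1 stood at 61.3 and 79.5 FPKM (0.37) and Col3a1 at 41.3 and 51.5 FPKM (0.31). Col27a1, a collagen counted outside this group, was lower at 9.86 and 1.67 FPKM (-2.02). It was counted among 12 beaded and other collagens, of which 6 were higher and 6 lower. The basement membrane chains Col4a1 and Col4a2, which are made from neighbouring genes, stood at 31.7 and 72.03 FPKM and 28.9 and 60.7 FPKM, and Col8a1, a network collagen of vessel walls, at 17.6 and 53.4 FPKM (1.55). Of the 8 network collagens, 4 were higher and 4 lower, with 3 at least 2-fold higher (37.5 percent against 12.5 percent of all genes). Of 12 genes that process collagen, 7 were higher and 5 lower, with 4 at least 2-fold higher (33.3 percent). Among the higher ones were the hydroxylases Plod3 at 7.86 and 22.003 FPKM (1.38) and P4ha1 at 6.30 and 14.9 FPKM (1.12). Lox, which crosslinks collagen and elastin, stood at 4.45 and 19.4 FPKM (1.91), while elastin itself, Eln, was level at 26.5 and 28.5 FPKM. Proteoglycan genes were lower in 24 of 37, with a median of -0.23, and 5 were at least 2-fold lower, 13.5 percent and near the 10.8 percent of all genes. The surface proteoglycan Gpc3 stood at 9.47 and 2.65 FPKM (-1.52), and Has2, the main maker of hyaluronan in the valve cushions, at 8.19 and 3.05 FPKM (-1.18). Proteases were divided. Adamts8 at 3.29 and 34.7 FPKM (3.06) and Mmp13 at 3.05 and 13.9 FPKM (1.88) were higher, and Mmp9 at 9.44 and 1.40 FPKM and Mmp8 at 9.29 and 1.98 FPKM, which neutrophils store, were lower. The protease inhibitor Timp1 was higher at 56.98 and 165 FPKM (1.51).

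Of 9 ligands of the EGF family, 8 were higher, 3 at least 2-fold (33.3 percent against 12.5 percent of all genes). They were led by Nrg1, which endocardium sends to heart muscle, at 0.588 and 18.3 FPKM (3.60), and Ereg at 1.21 and 10.1 FPKM (2.32). In the receptor group, which also holds the receptor inhibitor Errfi1, 4 of 5 genes were lower, and none was 2-fold different. Of all genes, 42.6 percent were lower. In the BMP family Bmp5 opposed Bmp2, at 17.8 and 1.23 FPKM (-3.08), the growth factor Gdf15 stood at 1.34 and 11.5 FPKM (2.41) and the activin antagonist Fst at 10.8 and 41.1 FPKM (1.84). Inhba, the activin A subunit, stood at 13.5 and 92.5 FPKM (2.69). Wnt ligands were 5 higher and 5 lower, with 3 at least 2-fold higher (30 percent against 12.5 percent of all genes): Wnt9b at 16.1 and 51.2 FPKM (1.61), Wnt2b at 1.94 and 7.85 FPKM and Wnt2 at 1.56 and 6.11 FPKM. Wnt receptors were 6 higher and 9 lower, with 4 at least 2-fold lower (26.7 percent against 10.8 percent of all genes), among them Fzd2 at 14.2 and 2.68 FPKM (-2.05). Rspo3, which strengthens Wnt signals, was lower at 43.7 and 12.9 FPKM (-1.69). IGF genes were lower in 11 of 16, 4 at least 2-fold (25 percent against 10.8 percent of all genes), and 2 were at least 2-fold higher (12.5 percent, as for all genes). The binding protein Igfbp5 stood at 275 and 63.9 FPKM (-2.08) and the ligand Igf2 at 59.2 and 21.04 FPKM (-1.45). Sema3g, a guidance ligand of endothelium, stood at 2.42 and 15.6 FPKM (2.28).

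Endothelial genes were higher in 36 of 49, with a median of 0.26. Of these, 7 were at least 2-fold higher, 14.3 percent of the list and near the 12.5 percent of all genes. The vasoconstrictor Edn1 stood at 7.87 and 27.8 FPKM (1.70), the adhesion molecules Sele at 10.1 and 26.9 FPKM (1.33) and Vcam1 at 129 and 264 FPKM (1.03), and the transcription factors Sox17 at 3.73 and 13.2 FPKM (1.59) and Sox18 at 24.9 and 56.7 FPKM (1.16). These 2 transcription factors did not stand for the rest. Of 19 endothelial and endocardial transcription factors, counted in a separate list, 6 were higher and 13 lower. At least 2-fold higher were 2 (10.5 percent against 12.5 percent of all genes). Foxc2 was lower at 16.6 and 6.31 FPKM (-1.27). Nos3, the endothelial nitric oxide synthase, stood at 18.6 and 35.7 FPKM (0.91). Vwf at 24.2 and 6.21 FPKM and Selp at 27.3 and 8.72 FPKM, which platelets hold as well, and Mmrn1 at 24.4 and 4.78 FPKM were lower. Selp and Mmrn1 are also members of the platelet list and are counted there. With long telomeres Vwf at 23.7 and 5.17 FPKM and Mmrn1 at 23.3 and 0.995 FPKM were lower too, but Selp was level at 11.9 and 12.3 FPKM. The part of platelets in these values was not tested. All 5 lymphatic markers were lower, but only Mmrn1 by at least 2-fold.

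Genes of minor cell types of the leaflet differed in direction. Of 17 mesothelial genes, 15 were lower, 7 at least 2-fold (41.2 percent against 10.8 percent of all genes), with the keratin Krt18 at 7.11 and 0.998 FPKM (-2.02) and the surface protein Upk3b at 5.73 and 1.76 FPKM (-1.29). Melanocytes are a known resident of mouse valves. Of 12 melanocyte genes, 8 were lower, 5 at least 2-fold (41.7 percent against 10.8 percent of all genes). The pigment enzymes Dct at 58.5 and 11.3 FPKM (-2.27) and Tyrp1 at 18.3 and 3.73 FPKM (-2.03) were the lowest of the 4 groups in heterozygous valves with short telomeres. Smooth muscle genes were close to level in the main, with Acta2 at 252 and 231 FPKM and Tagln at 69.3 and 67.1 FPKM, apart from Myl9 at 188 and 64.9 FPKM (-1.52) and Cnn1 at 10.4 and 2.66 FPKM (-1.64). Of 22 genes of fat cells and lipid uptake, 14 were lower, 5 at least 2-fold (22.7 percent against 10.8 percent of all genes), among them Cfd at 11.97 and 0.665 FPKM (-2.96) and Car3 at 30.2 and 4.08 FPKM (-2.62). The abundant members Fabp4, a fatty acid carrier, at 278 and 626 FPKM (1.17) and Lpl, the lipoprotein lipase, at 143 and 267 FPKM (0.89) were higher, and the list summed to 1042 and 1493 FPKM. Schwann cell genes were lower in 7 of 10, 3 at least 2-fold (30 percent against 10.8 percent of all genes). Neuronal genes were higher in 8 of 10, 4 at least 2-fold (40 percent against 12.5 percent of all genes), though in 7 after centring or quantile normalization. Npy, a peptide of sympathetic nerves, stood at 19.8 and 58.4 FPKM (1.51), and Dbh, which makes noradrenaline, was listed at 0 in wild type valves and reached 7.93 FPKM in heterozygous ones. Of 10 proteins that the liver secretes, 8 were at least 2-fold higher (80 percent against 12.5 percent of all genes). Of these genes, 7 were listed at 0 in wild type valves with short telomeres, and Alb stood at 17.8 FPKM in heterozygous valves and at 0.0777 and 0.273 FPKM with long telomeres.

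Telomere genes had a median of -0.27, with 15 of 27 lower and 5 at least 2-fold lower (18.5 percent against 10.8 percent of all genes). The shelterin subunit Pot1b, which covers the overhang at chromosome ends, stood at 18.4 and 2.47 FPKM (-2.48), Terf2ip at 9.61 and 3.88 FPKM (-1.12) and Dkc1, which stabilises the telomerase RNA, at 16.2 and 7.10 FPKM (-1.08). In the DNA damage response Mre11a, which senses breaks, was lower at 19.5 and 2.24 FPKM (-2.66), and the checkpoint kinase Chek2 higher at 0.640 and 8.16 FPKM (2.48). Targets of p53 were about evenly divided, 14 higher and 13 lower, with Trp53 itself at 44.8 and 20.7 FPKM (-1.08), the death receptor Fas at 31.2 and 12.9 FPKM (-1.21) and the junction protein Perp at 18.3 and 47.1 FPKM (1.32). The senescence marker Cdkn2a was listed at 0 in wild type valves and reached 1.69 FPKM in heterozygous ones. Of 27 genes secreted by senescent cells, 21 were higher, 9 at least 2-fold (33.3 percent against 12.5 percent of all genes), and this list shares Ccl8, Gdf15, Mmp13 and Timp1 with those above. Cell cycle genes split, with the mitotic cyclin Ccnb2 lower at 90.04 and 8.48 FPKM (-3.26) and the G1 cyclin Ccnd1 higher at 44.6 and 126 FPKM (1.47). With long telomeres Ccnb2 stood at 2.10 and 29.4 FPKM, so that it was there the higher in heterozygous valves.

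Genes of cell stress were also counted, since leaflets were taken apart before RNA was made. Immediate early genes were lower in 16 of 25, but only 2 at least 2-fold (8 percent, near the 10.8 percent of all genes). Egr1 stood at 1017 and 568 FPKM (-0.84) and Fos at 295 and 211 FPKM (-0.48). All 12 heat shock genes were higher, 2 of them at least 2-fold (16.7 percent against 12.5 percent of all genes), though Hsp90aa1 was lower after centring or quantile normalization. Cryab, a chaperone of muscle, stood at 239.5 and 795 FPKM (1.73). Nuclear genes of the respiratory chain were higher in 35 of 40 with a median of 0.42, 2 of them at least 2-fold (5 percent against 12.5 percent of all genes). With long telomeres 39 of the 40 were higher, with a median of 0.43, where heart muscle genes had a median of 0.03. Heart muscle is rich in mitochondria, and its part in these values was not tested. Ribosomal protein genes were level, with a median of -0.02 over 50 and 1 member at least 2-fold different. Interferon-stimulated genes were divided, 8 at least 2-fold higher and 5 at least 2-fold lower (22.9 and 14.3 percent against 12.5 and 10.8 percent of all genes), with Ifit1 at 9.22 and 24.7 FPKM (1.33) against Isg20 at 253 and 64.6 FPKM (-1.95).

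Set beside the Notch1 difference with long telomeres, which rests on 8 other mice, the difference with short telomeres bore little likeness to it across genes. Over 15044 genes with a mean of at least 1 FPKM, Pearson's r was 0.03 and Spearman's rho 0.07, a description across genes that are not independent replicates. With long telomeres 10.9 percent of all genes were at least 2-fold higher in heterozygous valves and 7.53 percent at least 2-fold lower, and 2.69 and 1.27 percent passed 4-fold. Genes at least 2-fold higher in both numbered 319, which is 15.4 percent of those higher with short and 18.7 percent of those higher with long telomeres. Genes at least 2-fold lower in both numbered 252, 14.0 percent and 21.7 percent. Genes lower with short and higher with long telomeres numbered 316, 17.5 percent and 18.5 percent, and those higher with short and lower with long telomeres 162, 7.82 percent and 14.0 percent. These last 2 shares are near the 7.53 percent of all genes lower with long and the 13.8 percent of the 15044 higher with short telomeres. Of the 26 genes at least 4-fold lower in both with at least 10 FPKM in the higher group of each, those with the widest differences included Gp1bb, Gchfr, Gp9, Tubb1, Treml1, Gp5 and Slc6a4. Gchfr, which regulates the first step of tetrahydrobiopterin synthesis, stood at 44.3 and 1.73 FPKM and at 32.2 and 1.03 FPKM with long telomeres. Leading among the 25 that were lower with short and higher with long telomeres were the T cell and thymocyte genes Cd8b1, Cd6, Cd8a, Dntt and Arpp21, with Arpp21 at 14.8 and 0.0223 FPKM and 8.60 and 82.03 FPKM. Sln and Nppa were the 2 genes at least 4-fold higher with short and lower with long telomeres. Whether the differences at the 2 telomere lengths differ from each other was not tested, since each group has 1 value.

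**Figure D5:**
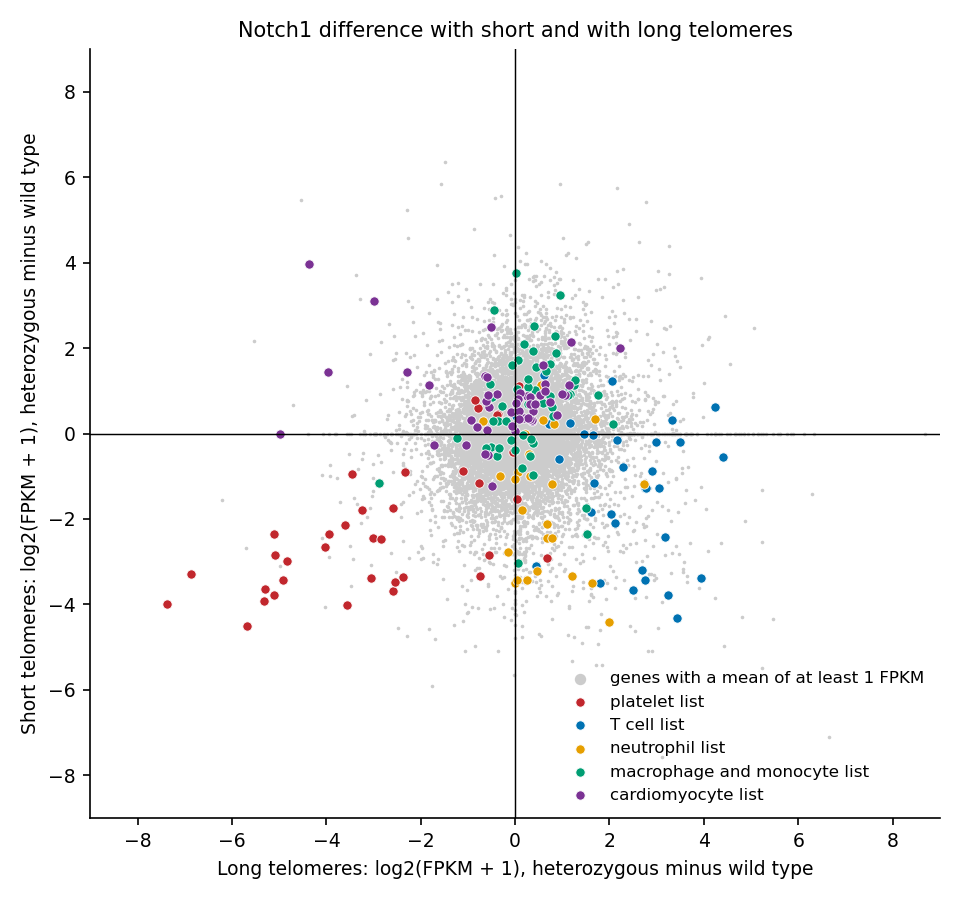
Difference of log2(FPKM + 1), heterozygous minus wild type, with long telomeres (horizontal) and with short telomeres (vertical), 1 point per gene with a mean of at least 1 FPKM over the 4 groups (grey) or per member of 5 gene lists (colour), 1 pooled value per group. Platelet genes lie at the lower left, lower in both, and T cell genes at the lower right. Macrophage genes lie mostly above the horizontal line and mostly right of the vertical line, with medians of 0.72 and 0.31 with short and long telomeres.

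Of the 466 genes at least 4-fold higher in heterozygous valves, the wild type group with short telomeres was the lowest of the 4 in 387 and the heterozygous group with short telomeres the highest in 321, with both long telomere groups between them in 248. Their median log2(FPKM + 1) was 0.48 in wild type and 3.38 in heterozygous valves with short telomeres, against 2.51 and 2.88 with long telomeres. By these medians the long telomere groups lay nearer to the heterozygous group. Of the 552 genes at least 4-fold lower, the wild type group was the highest in 435 and the heterozygous group the lowest in 359, with medians of 3.85 and 0.78 against 2.04 and 2.16. The genes were picked for a wide gap between the short telomere groups, which by itself puts these groups toward the ends of the order. Which of them the long telomere groups lay nearer to was read on the same picked genes and can depend on that choice. Genes for which the heterozygous group with short telomeres stood apart included Spp1, Ccl8, Il10 and Hmox1, and those for which the wild type group did included Retnlg, S100a8, Tcf21 and Lfng.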

How the data were processed

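RNA of aortic valve leaflets, freed with collagenase, was amplified from random and poly-T primers and sequenced in pairs on an Illumina HiSeq, per the labels' protocols. The kits named there are not stated to keep strand, so reads of overlapping and antisense genes cannot be told apart. The submitters' processing notes list TopHat, SAMtools, Picard, FastQC and the mouse build mm9, and what computed expression is not given in the sources used here. Per the file headers, the deposited values are FPKM, with a single column for each group. Libraries had therefore been combined by the authors, and depth, spread and batches could not be examined. The deposited columns of calls were not used.

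From these values log2(FPKM + 1) was computed, with a pseudocount of 1, no filter on low values and no rescaling, using Python 3.11.15, numpy 2.4.6 and pandas 2.3.3, and figures were drawn with matplotlib 3.10.9. Samples were grouped by their genotype labels. Genes were counted past 2-fold (a log2 difference of 1) and 4-fold (2), and the code was tested on simulated data. The members and 49 gene lists were chosen with earlier results of these data known. List members were matched by symbol and then by RefSeq synonym. Named genes are Notch1, Terc, genes among the 20 largest differences each way with at least 10 FPKM, up to 6 members per list with the largest differences and at least 5 FPKM, and up to 8 genes per pattern shared with long telomeres. Other genes in the text, chiefly members with small differences and those given for their role, were chosen after their values were seen. Some genes that the rule selects are not reported here, though they are counted with their lists. Promoters of 250 bases came from RefSeq (GRCm38.p6), matched by symbol, since no coordinates of the files were used.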

Additional observations from a re-analysis of the deposited data

How the results depend on the processing

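No paired analysis was possible because each group has 1 pooled value, and for the same reason no library could be left out and depth sets no interval. The counts of genes depended on how low values were treated. With a pseudocount of 0.1, 4026 genes were at least 2-fold higher and 2823 lower, and 1808 higher and 1250 lower by at least 4-fold. With a pseudocount of 5 the counts were 724 higher and 832 lower at 2-fold, and 81 and 151 at 4-fold. Among genes with a mean of at least 10 FPKM they were 630 and 627, and 134 and 207. Centring, rescaling without mitochondrially encoded genes, quantile normalization and leaving out the blood cell lists kept each of these counts within 1.5 times, as did a minimum mean of 1 FPKM.

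Medians of lists near 0 changed sign. That of the p53 targets was -0.004188 with a minimum mean of 1 FPKM, -0.035 with 10 FPKM and -0.040 after centring. That of the Notch pathway was -0.022 after centring. With a minimum of 10 FPKM the interferon-stimulated median was -0.009359 and the liver-secreted median -0.30, and that of fat cell and lipid uptake genes was 0.036. The neural and Schwann cell median was -0.007772 after quantile normalization. The other list medians named in the report kept their sign under each of these settings. So did the differences of the named genes, except for Cd74, Hes1 and Hsp90aa1 after centring and Tnnt2 and Hsp90aa1 after quantile normalization. The platelet median was -1.60 with a pseudocount of 5. The cause of these shifts was not tested.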

Other observations

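Several genes outside the lists were among the 20 widest differences in their direction. Cst6, an inhibitor of cysteine proteases best known from skin, stood at 1.14 and 45.5 FPKM (4.44) with short and at 4.53 and 14.7 FPKM with long telomeres, so that the heterozygous value was the higher at both lengths. Pop7, a protein subunit of the RNA-processing enzymes RNase P and RNase MRP, stood at 0.105 and 19.7 FPKM (4.23). Nme3, a nucleoside diphosphate kinase, was listed at 0 in wild type valves and reached 44.7 FPKM in heterozygous ones, with 20.6 and 15.1 FPKM in the long telomere groups. Scgb1c1, a small secreted protein, was listed at 0 in wild type valves and reached 17.1 FPKM in heterozygous ones.

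On the lower side, S100a7a, a calcium-binding protein of inflamed epithelium, was listed at 0 in heterozygous and at 17.5 FPKM in wild type valves. Shisa9, a membrane protein that modulates glutamate receptors, stood at 20.2 and 0.0747 FPKM (-4.30), and its values with long telomeres were 0.486 and 0.266 FPKM. Slamf1, a receptor of lymphocytes that is a member of the immature thymocyte list, stood at 43.2 and 1.77 FPKM (-4.00). It differed from most other T cell genes in that it was lower in heterozygous valves with long telomeres too, at 32.8 and 15.2 FPKM. Hdc, which makes histamine in mast cells and neutrophils and is a member of both lists, stood at 27.4 and 1.62 FPKM (-3.44). The mast cell protease Cpa3 was near 1 FPKM in both groups, at 1.07 and 0.865 FPKM. Among clock genes Dbp, an output of the clock, stood at 3.56 and 11.6 FPKM (1.47), and Nr1d1, a core repressor, at 119.8 and 97.3 FPKM (-0.30).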
